A study of Mus musculus with 6 samples.

Results

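T-box factors are transcription factors that share a DNA-binding domain named after the mouse T gene, and 8 of them were followed here in Eed-deleted and control epidermis. They were the rows of the count files with the symbols Tbx1, Tbx2, Tbx3, Tbx4, Tbx5, Tbx15, Tbx18 and Tbx20, which is 8 of 24453 gene symbols. RNA was sequenced from 3 Eed cKO libraries and 3 control libraries of newborn mice (postnatal day 0). The genotype label of the first group is Eed-/- and that of the second is Control. The alleles, the Cre driver of the conditional knockout (cKO), the strain and the genotype of the control animals are not stated in the labels. Cells came from back skin dissociated with collagenase and trypsin, and were sorted as interfollicular epidermis by EpCAM, Sca1 and high α6-integrin. Whether each library is a separate animal is not stated in the labels. The p-values below therefore reflect the spread among these libraries only, which may be technical.

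Eed belongs to the core of PRC2, the Polycomb complex that methylates a lysine in the tail of histone H3 and keeps developmental genes silent in tissues that do not use them. T-box factors act early in the embryo. They give identity to the heart, the limb buds, the pharyngeal arches, the somites and the mesenchyme around the developing organs, and several of them also act in skin appendages or in the dermis. Some are activators (Tbx5 and Tbx20 in the heart) and others mainly repressors (Tbx2, Tbx3, Tbx15 and Tbx18). The linked pairs, Tbx2 with Tbx4 and Tbx3 with Tbx5, descend from the duplication of an ancestral pair of neighbouring genes.

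Values are counts-per-million (CPM) after TMM scaling, from libraries of 20998149 to 27447679 counts in Eed cKO and of 25481306 to 29998531 counts in control. In the test across 14700 genes (edgeR's quasi-likelihood test, Benjamini-Hochberg adjusted p under 0.05), 3.39% of genes were higher in Eed cKO and 0.816% were lower. Eed itself averaged 33.3 ± 3.90 CPM in Eed cKO and 46.4 ± 6.11 CPM in control (SD, n = 3 each), which did not pass (edgeR adjusted p 0.252). Which exons were deleted is not stated in the labels, so a count over the whole gene is a poor check of the deletion. All 10 basal epidermal markers listed were tested and present, with Krt5 at 22537 CPM in Eed cKO and 22623 CPM in control. Trp63 averaged 1577 CPM in Eed cKO and 2032 CPM in control, Col17a1 2737 and 3549 CPM, and Krt15 2373 and 3058 CPM. For these genes every Eed cKO library lay below every control library, but none passed (edgeR adjusted p 0.266, 0.278 and 0.394). Of the 10 markers, 4 had a positive log2 fold change. Of these 10, only Epcam, a gene of the sort, was called, at 140 ± 17.4 CPM in Eed cKO and 82.1 ± 20.4 CPM in control (edgeR adjusted p 0.0433), a call lost without Eed cKO 2 (edgeR adjusted p 0.161), Eed cKO 3 (0.165), control 1 (0.134) or control 3 (0.171). Xist was at 8.55 CPM in Eed cKO 2 and at 5297 CPM or more in the other 5 libraries, so the edgeR test was also run without Eed cKO 2, and calls lost in that fit among the T-box, partner, target, neighbour and marker genes are named beside the gene.

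Of the 8 T-box genes, 5 were tested and all 5 tested genes were higher in Eed cKO, against 3.39% of all genes tested. These were Tbx1, Tbx3, Tbx5, Tbx15 and Tbx18. The other 3, Tbx2, Tbx4 and Tbx20, had too few counts to be tested. A gene that is almost silent in control is tested only where Eed cKO expresses it. The 8 genes were also chosen with earlier results of these data known. The count of 5 and the median given next are therefore in part built into the filter, and the choice may add to them. The median log2 fold change of these 5 was 5.23, also with Tbx5 set at its bound, against -0.01 over all genes tested. Among the 1546 tested genes under 1 CPM in control, 9.12% were higher, and Tbx1, Tbx5, Tbx15 and Tbx18 belong to them. The summed level of the 8 genes ran from 60.8 to 71.7 CPM in the Eed cKO libraries and from 1.41 to 4.54 CPM in the control libraries. In such bulk samples, a change in the number of cells that express a gene and a change in RNA per cell cannot be told apart.

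**Figure D1:**
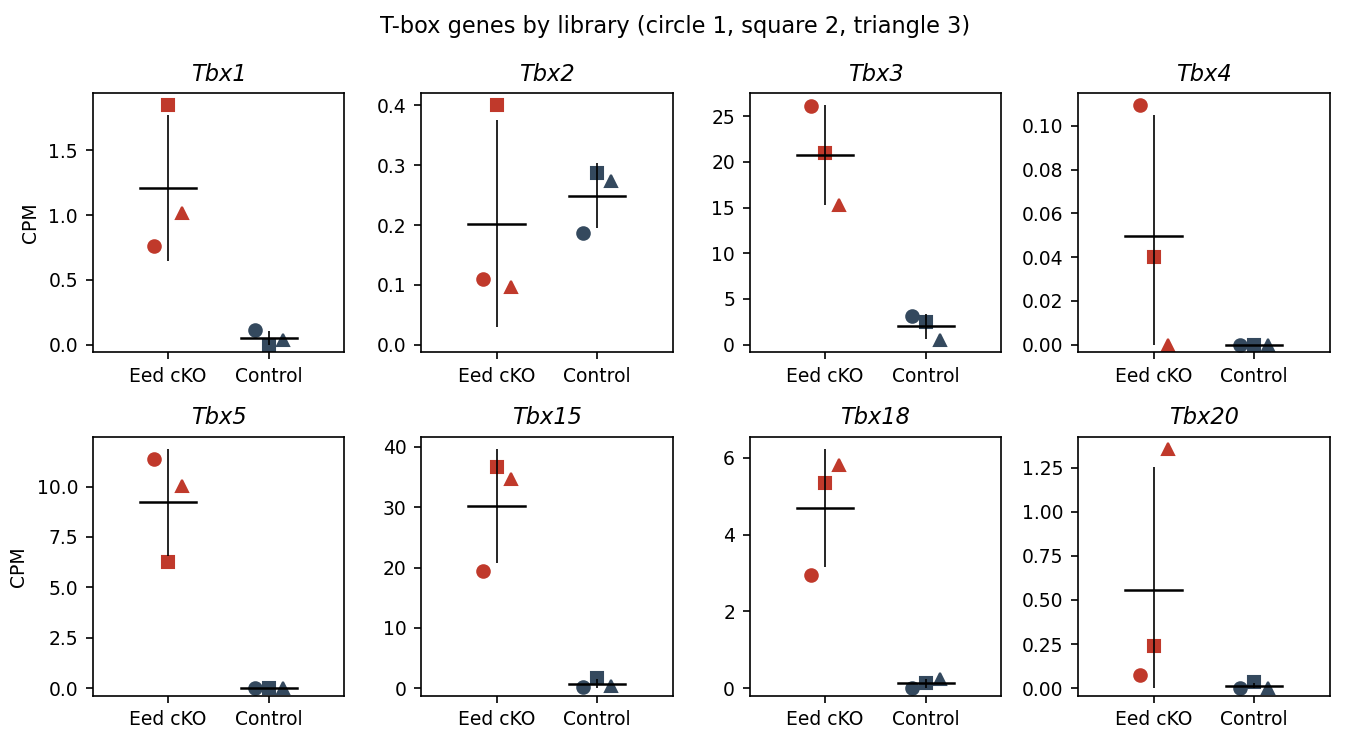
CPM of each T-box gene (vertical axes, linear, each on its own scale) in 3 Eed cKO libraries (red, left) and 3 control libraries (dark, right), with the mean as a bar and 1 SD as a line cut at 0. In Tbx1, Tbx3, Tbx5, Tbx15, Tbx18 and Tbx20 every Eed cKO library lies above every control library, whereas Tbx2 and Tbx4 overlap. Eed cKO lies above control in this way in 11.0% of all tested genes and 7.69% of all genes in the files.

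Promoter sequences were taken from RefSeq (GRCm38.p6), whose table holds 4 of the 8 genes, Tbx1, Tbx4, Tbx18 and Tbx20. They are shown because PRC2 is known to act at promoters rich in CpG dinucleotides. Each line gives the 250 bases upstream of an annotated start, 5′ to 3′ on the gene's strand, with every CpG in capitals. Tbx18 and Tbx1 were higher in Eed cKO, while Tbx4 stayed close to 0 counts in both groups. The regions are chr9:87731261-87731510 (minus strand) for Tbx18, chr16:18590672-18590921 (minus strand) for Tbx1 and chr11:85896515-85896764 (plus strand) for Tbx4, whose RefSeq start lies inside the longer GENCODE gene (85886422 to 85916097).
Tbx18: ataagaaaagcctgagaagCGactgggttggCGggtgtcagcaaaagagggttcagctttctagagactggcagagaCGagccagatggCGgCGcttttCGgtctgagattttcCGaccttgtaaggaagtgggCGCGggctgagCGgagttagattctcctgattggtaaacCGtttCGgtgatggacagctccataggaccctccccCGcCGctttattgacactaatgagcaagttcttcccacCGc
Tbx1: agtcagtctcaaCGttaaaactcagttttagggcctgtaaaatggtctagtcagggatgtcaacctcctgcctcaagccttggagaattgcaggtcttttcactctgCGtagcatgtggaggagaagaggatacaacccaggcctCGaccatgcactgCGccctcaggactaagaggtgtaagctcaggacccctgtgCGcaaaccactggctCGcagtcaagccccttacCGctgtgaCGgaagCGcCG
Tbx4: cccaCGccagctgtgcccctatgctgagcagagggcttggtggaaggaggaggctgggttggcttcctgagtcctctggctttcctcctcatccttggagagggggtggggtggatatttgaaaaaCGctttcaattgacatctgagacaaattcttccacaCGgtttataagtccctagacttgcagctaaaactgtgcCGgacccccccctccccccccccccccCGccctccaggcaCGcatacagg
The printed stretches hold 15 CpG in Tbx18, 10 in Tbx1 and 6 in Tbx4. Over the 300 bases around the start there were 15 CpG in Tbx18, 16 in Tbx1 with 26 at its second start, 26 in Tbx20 and 8 in Tbx4. The median of 32841 promoters of the same length was 7. The observed over expected CpG ratio was 0.755 in Tbx18, 0.633 and 0.729 at the starts of Tbx1, 0.745 in Tbx20 and 0.314 in Tbx4, and its median over all promoters was 0.384. The T-box half-site GGTGTGA, searched on both strands, was in none of these windows and in 3.98% of all promoters. These are descriptions of a few promoters, and Tbx20, with as many CpG as the second Tbx1 start, had few counts.

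Tbx15 reached the highest level. It encodes a transcriptional repressor needed for skeletal development, whose loss in the mouse also shifts the border between dorsal and ventral coat colour. The gene (chromosome 3, 99240381 to 99354259, plus strand, GRCm38) had 19.3, 36.6 and 34.7 CPM in Eed cKO libraries 1, 2 and 3, against 0.150, 1.60 and 0.391 CPM in control libraries 1, 2 and 3. Eed cKO 1 was the lowest of its group and control 2 the highest of its own, and the groups did not overlap, as in 11.0% of all tested genes with Eed cKO above control. The difference was 5.35 ± 0.59 on the log2 scale (SE; edgeR adjusted p 0.000111). Without control 2, which holds 50 of the 64 control counts, it was 6.80.

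Tbx18, the closest relative of Tbx15, acts in somites, ureter mesenchyme and the sinus node, and marks precursors of the dermal papilla in embryonic skin. It lies on chromosome 9 (87702800 to 87731260, minus strand) and had 2.95, 5.34 and 5.81 CPM in Eed cKO libraries 1, 2 and 3. The control libraries had 0, 0.128 and 0.234 CPM. As with Tbx15, Eed cKO 1 was the lowest Eed cKO library, and the groups did not overlap. The difference was 5.23 ± 0.87 on the log2 scale (SE; edgeR adjusted p 0.00297), and 6.03 without control 3. An opposite-strand gene, D030062O11Rik, shares 970 exonic bases with Tbx18, and the strand setting of the counting is not stated, so reads from the shared bases cannot be assigned.

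Tbx3 and Tbx5 are neighbours on chromosome 5, 147944 bases apart. Tbx3 is a repressor needed for mammary placodes and limb patterning, and its human mutations cause ulnar-mammary syndrome. Tbx3 (119670669 to 119684724, plus strand) had 26.1, 20.95 and 15.2 CPM in Eed cKO libraries 1, 2 and 3, against 3.10, 2.49 and 0.469 CPM in control libraries 1, 2 and 3. It was the only one of the 8 above 1 CPM on average in control. The difference was 3.35 ± 0.51 on the log2 scale (SE; edgeR adjusted p 0.00152), and leaving out any 1 library gave 2.89 to 3.78. Tbx3 shares 115 exonic bases with the opposite-strand gene Tbx3os1. Its other antisense gene, Tbx3os2, had 2 counts in Eed cKO and 0 in control.

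Tbx5, the forelimb and heart factor mutated in human Holt-Oram syndrome, lies at 119832668 to 119885219 on the plus strand. It had 312, 156 and 207 counts in Eed cKO libraries 1, 2 and 3, or 11.4, 6.26 and 10.02 CPM, against 0 counts in each control library. It was the only one of the 5 tested genes with no control count. Pooled over each group, it was at least 258-fold higher in Eed cKO, the bound against a floor of 3 counts over the control group (0.0359 CPM). The test gave an edgeR adjusted p of 2.29e-05. No exonic base of Tbx5 is shared with another annotated gene, nor of Tbx1, Tbx2, Tbx4, Tbx15 or Tbx20. Eed cKO 1 was the highest library for both Tbx3 and Tbx5 and the lowest for both Tbx15 and Tbx18.

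Tbx1, the pharyngeal arch factor linked to DiGeorge syndrome in humans, was lower in level and less certain. It lies on chromosome 16 (18580979 to 18590671, minus strand) and had 21, 46 and 21 counts in Eed cKO libraries 1, 2 and 3, against 3, 0 and 1 counts in control libraries 1, 2 and 3. These are 0.765, 1.85 and 1.02 CPM in Eed cKO and 0.112, 0 and 0.0391 CPM in control. The groups did not overlap, but the call stood close to the threshold (log2 fold change 4.50 ± 1.18 SE; edgeR adjusted p 0.0485). It was lost in each of the 6 fits that left out 1 library, with edgeR adjusted p from 0.0657 without control 1, where the log2 fold change was 5.73, to 0.232 without Eed cKO 2.

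**Figure D2:**
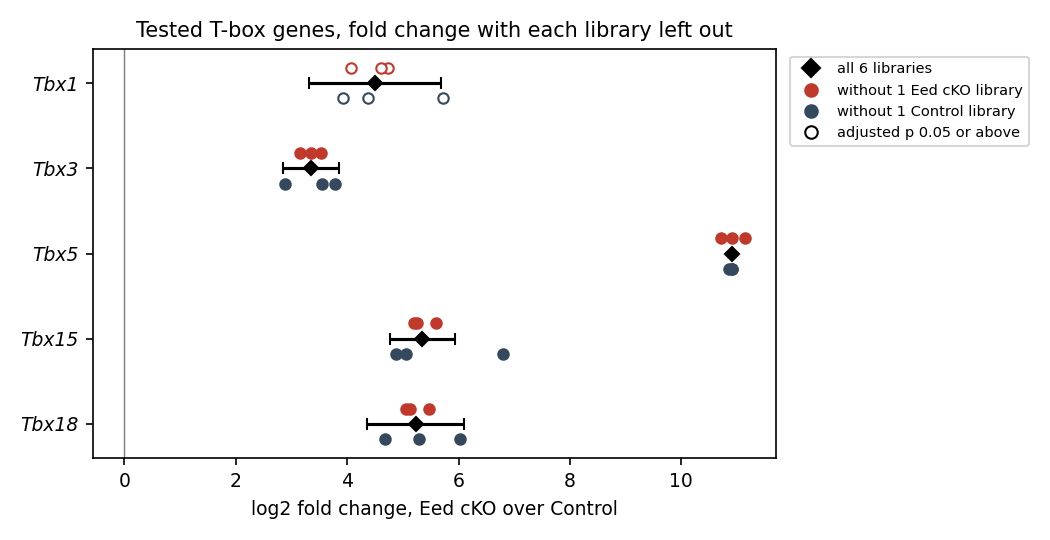
Log2 fold change of Eed cKO over control for the 5 tested T-box genes, with all 6 libraries (diamonds, bars 1 SE) and with 1 library left out (red: an Eed cKO library; dark: a control library; open: adjusted p 0.05 or above). Tbx3, Tbx5, Tbx15 and Tbx18 passed in every fit and Tbx1 in none of the fits with a library left out; the fitted value of Tbx5, which has no control count, depends on the prior count and has no bar.

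The 3 untested genes differed from each other. Tbx20, a factor of the heart chambers, had 2, 6 and 28 counts in Eed cKO libraries 1, 2 and 3, against 0, 1 and 0 counts in control libraries. The ratio of pooled counts was 41.2 with an exact 95% counting interval of 6.94 to 1673, but 28 of the 36 Eed cKO counts lay in Eed cKO 3. Fitted without a filter on low counts, it had an edgeR adjusted p of 0.140. All 3 Eed cKO libraries were above all 3 control libraries, which was so for 7.69% of all genes in the files.

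Tbx2 and Tbx4 form the other linked pair, 44474 bases apart on chromosome 11. Tbx2, a repressor related to Tbx3, had 3, 10 and 2 counts in Eed cKO libraries 1, 2 and 3, against 5, 9 and 7 counts in control libraries 1, 2 and 3. The groups overlapped, and the pooled ratio was 0.818 with a counting interval of 0.392 to 1.66. Tbx4, the hindlimb and lung mesenchyme factor, had 3, 1 and 0 counts in Eed cKO libraries 1, 2 and 3, and 0 in all control libraries. Fitted without a filter on low counts, Tbx2 had an edgeR adjusted p of 0.965 and Tbx4 one of 0.575. Both members of the pair on chromosome 5 were thus called and neither member of the pair on chromosome 11 could be tested, and the difference between the pairs was not tested. The 8 genes share no run of 100 bases, the read length, in their annotated transcripts, so reads of this length that match exactly do not fall between 2 of them.

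Levels of different genes were compared as CPM per kilobase of exonic sequence. In Eed cKO the order was Tbx15 (mean 8.06), Tbx3 (3.14), Tbx5 (1.97), Tbx18 (0.996), Tbx1 (0.344), Tbx2 (0.0558), Tbx20 (0.0464) and Tbx4 (0.0146). Tbx3 and Tbx5 overlapped between libraries, as did Tbx2, Tbx20 and Tbx4, while every other neighbouring pair in this order was apart. Tbx15 stood above 64.6% of the tested genes in Eed cKO, Tbx3 above 40.7%, Tbx5 above 31.4%, Tbx18 above 21.05% and Tbx1 above 9.06%. The median tested gene was at 4.69 CPM per kilobase in Eed cKO and 4.65 in control. In control the order was Tbx3 (0.305), Tbx15 (0.190), Tbx2 (0.0688), Tbx18 (0.0256), Tbx1 (0.0143) and Tbx20 (0.000888), with Tbx4 and Tbx5 at 0 counts. There each neighbouring pair overlapped except Tbx2 and Tbx18, whose ranges were narrowly apart. The highest of them, Tbx3, stood above 10.1% of the tested genes in control. Tbx2 therefore held rank 6 in Eed cKO and rank 3 in control, without a detectable change of its own at this depth.

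**Figure D3:**
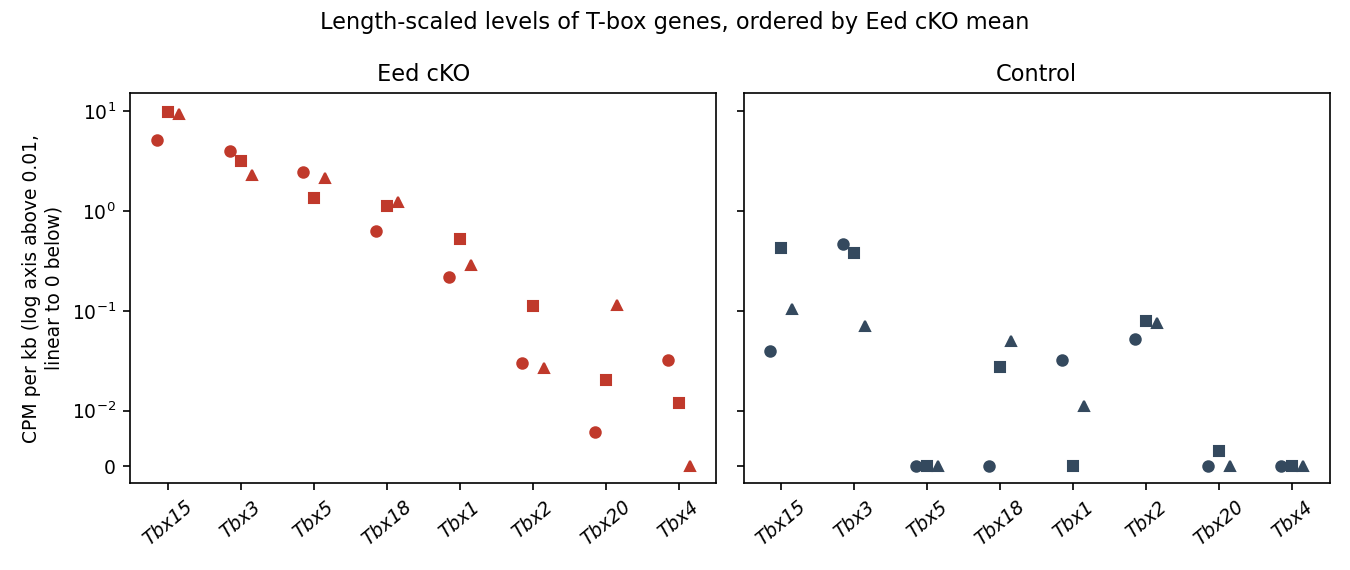
CPM per kilobase of exonic sequence (vertical axis, logarithmic above 0.01 and linear below) of the 8 T-box genes in each Eed cKO library (left, red) and each control library (right, dark), with libraries 1, 2 and 3 as circle, square and triangle. Tbx15, Tbx3, Tbx5, Tbx18 and Tbx1 are at 0.218 or more in every Eed cKO library. The highest control value is 0.469, for Tbx3 in control 1, which lies above Tbx1 in Eed cKO 1 (0.218) and Eed cKO 3 (0.289).

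The genes beside the T-box genes mostly showed no call. Taking the nearest 2 protein-coding genes on each side gave 24 genes apart from the T-box genes themselves, of which 18 were tested. One was higher, 0 were lower and 17 did not pass, against 4.21% of all tested genes called in either direction. The median log2 fold change of the 18 was -0.01, which is also that of all tested genes. Wars2, a mitochondrial tRNA synthetase gene that ends 1195 bases before Tbx15, had 35.6 ± 3.94 CPM in Eed cKO and 36.4 ± 0.444 CPM in control (SD, n = 3 each; log2 fold change -0.03, edgeR adjusted p 0.971). Around the pair on chromosome 5, the log2 fold changes were -0.10 for Med13l (edgeR adjusted p 0.851) and -0.03 for Rbm19 (edgeR adjusted p 0.976). Of the 17 that did not pass, Sept5, 29831 bases from Tbx1, came closest (log2 fold change 1.66, edgeR adjusted p 0.0572). It averaged 10.4 ± 4.25 CPM in Eed cKO and 3.30 ± 1.82 CPM in control, and the groups did not overlap. Sept5 shares 3277 exonic bases with other annotated genes on its strand. The gene called higher was Nt5e, which encodes the surface enzyme CD73 and lies 595937 bases from Tbx18. It had 12.02, 7.30 and 11.7 CPM in Eed cKO libraries 1, 2 and 3, against 2.09, 1.60 and 1.87 CPM in control libraries 1, 2 and 3 (log2 fold change 2.48 ± 0.39 SE; edgeR adjusted p 0.00205).

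**Figure D4:**
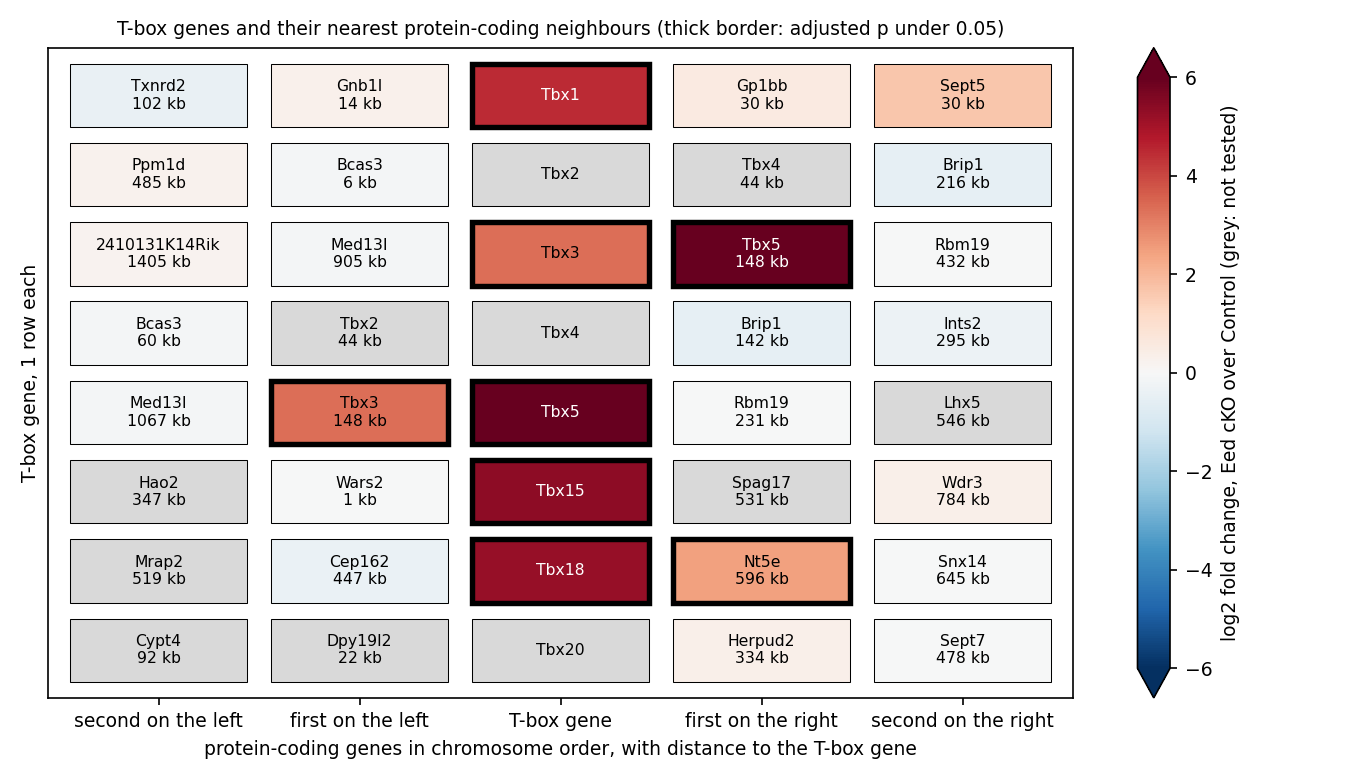
Each row shows a T-box gene (centre) and its nearest 2 protein-coding genes on either side with their distance, coloured by log2 fold change of Eed cKO over control (the darkest colour also stands for values beyond the scale; grey: not tested; thick border: edgeR adjusted p under 0.05). Apart from T-box genes themselves, only Nt5e beside Tbx18 has a thick border among the 18 tested neighbours.

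Of 9 other T-box genes, 3 were tested. Tbr1, a factor of cortical projection neurons, rose to 1.60, 1.69 and 2.37 CPM in Eed cKO libraries 1, 2 and 3, against 0.224, 0.0320 and 0.0391 CPM in control libraries 1, 2 and 3. The difference of 4.21 ± 1.00 on the log2 scale passed (SE; edgeR adjusted p 0.0281), but the call was lost in 5 of the 6 fits that left out 1 library, all but that without control 1, with edgeR adjusted p up to 0.136. Without control 1 the log2 fold change was 5.56. The Max-binding T-box protein gene Mga averaged 400 ± 50.4 CPM in Eed cKO and 369 ± 44.9 CPM in control, and did not pass (edgeR adjusted p 0.841). Tbx6, a factor of presomitic mesoderm, averaged 1.70 ± 1.22 CPM in Eed cKO and 1.12 ± 1.03 CPM in control and did not pass either (edgeR adjusted p 0.888). The remaining 6 were not tested. Eomes, of early mesoderm and cortex, had 34 pooled counts in Eed cKO and 11 in control, all 11 in control 2, and Tbx22 had none in any library.

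T-box factors bind DNA together with GATA, homeodomain and other factors, and 19 such partner genes were listed. Of the 10 tested, 5 were higher (among them Gata4, Gata6, Isl1 and Eya1), 0 were lower and 5 did not pass, against 3.39% of all tested genes higher, or 9.12% of those under 1 CPM in control. Their median log2 fold change was 3.50, also with Isl1 at its bound, against -0.01 over all genes tested. The same limit of the filter on silent genes holds for them. The list was also chosen with earlier results of these data known, so its share of higher genes is no measure of enrichment. Eya1, a transcriptional coactivator of organ development, averaged 19.6 ± 3.54 CPM in Eed cKO and 3.66 ± 2.86 CPM in control (SD, n = 3 each; log2 fold change 2.42, edgeR adjusted p 0.00686; 3.27 without control 1). The heart and endoderm factor Gata4 averaged 29.5 ± 10.03 CPM in Eed cKO and 0.0380 ± 0.0374 CPM in control, and its relative Gata6 21.99 ± 7.55 CPM in Eed cKO and 0.0657 ± 0.0836 CPM in control. The log2 fold change of Gata4 (9.50) was 10.36 without control 1 and 8.90 without control 2, and that of Gata6 (8.19) was 9.85 without control 2. Isl1, which with Tbx20 and Gata4 acts in heart progenitors, had 234 pooled counts in Eed cKO and 0 in control, at least 89.3-fold higher. The heart factor Nkx2-5 had 22 pooled counts in Eed cKO and 0 in control, and Hand2 had 4 in Eed cKO and 2 in control. Mef2c, a muscle and heart factor, averaged 9.92 ± 0.887 CPM in Eed cKO and 12.7 ± 5.18 CPM in control and did not pass (edgeR adjusted p 0.732). Pitx1, which acts with Tbx4 in the hindlimb, averaged 19.2 ± 7.22 CPM in Eed cKO and 1.52 ± 2.63 CPM in control (only control 1 had counts) and did not pass (edgeR adjusted p 0.0868), but passed without control 1 (6.95e-06).

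Of 23 listed target genes of T-box factors, 14 were tested, 3 were higher, 0 were lower and 11 did not pass, against 3.39% of all tested genes higher and 0.816% lower. The median log2 fold change of the 14 was 0.99, also with Cdkn2a at its bound, against -0.01 over all genes tested. The limit of the filter on silent genes holds for this list too, as does the choice of the list with earlier results known. Gja1, the connexin 43 gene that Tbx2, Tbx3 and Tbx18 repress in the heart, had 638, 934 and 1006 CPM in Eed cKO libraries 1, 2 and 3, against 326, 335 and 455 CPM in control libraries 1, 2 and 3 (log2 fold change 1.21 ± 0.20 SE; edgeR adjusted p 0.00278). Cdkn2a, the Ink4a and Arf gene that Tbx2 and Tbx3 repress in cultured cells, had 22, 67 and 23 counts in Eed cKO libraries 1, 2 and 3, and none in control. It was at least 42.8-fold higher over pooled counts (edgeR adjusted p 0.00883), but did not pass without Eed cKO 2 (edgeR adjusted p 0.0738). Bmp4, a growth factor gene tied to Tbx3 in the limb and mammary placode, averaged 22.3 ± 5.53 CPM in Eed cKO and 9.09 ± 0.951 CPM in control (edgeR adjusted p 0.0120), a call lost without Eed cKO 3 (edgeR adjusted p 0.0833) or control 3 (0.0652). The epithelial cadherin gene Cdh1 (log2 fold change 0.50, edgeR adjusted p 0.171) and the cell cycle inhibitor gene Cdkn1a (0.55, edgeR adjusted p 0.282) did not pass. The natriuretic peptide gene Nppb and the Tbx1 target Fgf8 had no count in any library. Fgf10, the limb and lung target of Tbx4 and Tbx5, had 20 pooled counts in Eed cKO and 15 in control.

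Dermal fibroblasts and dermal papilla cells normally express Tbx15 and Tbx18, so markers of those cells were read in the same libraries. Of 10 tested fibroblast markers, 0 were higher, 1 was lower (Postn) and 9 did not pass. Over all tested genes, 3.39% were higher and 0.816% were lower. At these shares a list this small would hold few calls or none, here and in the marker lists below. Their summed level was 1471 to 1550 CPM in Eed cKO and 1769 to 2496 CPM in control. Without Postn, which made up most of the sum, it turned round to 617 to 707 CPM in Eed cKO and 418 to 615 CPM in control, with 0 of the 9 tested genes called. Decorin (Dcn), the most abundant of these, averaged 327 CPM in Eed cKO and 215 CPM in control (log2 fold change 0.61, edgeR adjusted p 0.278). Without a filter on low counts, Dcn was called higher. Of the 9 tested genes, 5 had a positive log2 fold change. The part of dermal cells in the values of Tbx15 and Tbx18 was not tested. None of the 11 fibroblast markers was at 0 in all libraries, and Col1a1 averaged 85.6 ± 13.7 CPM in Eed cKO and 94.9 ± 2.83 CPM in control. Of 6 tested dermal papilla markers 0 were called, and their sum, mostly Lef1, was 278 to 368 CPM in Eed cKO and 374 to 468 CPM in control. Lef1 alone averaged 309 CPM in Eed cKO and 419 CPM in control, so the sum follows this gene. Of the 6, 4 had a positive log2 fold change, and the median was 0.30. Of 10 muscle and heart markers 3 were tested and 0 called, with sums of 9.44 to 14.9 CPM in Eed cKO and 6.29 to 9.76 CPM in control. Of these 3, 2 had a positive log2 fold change. Actc1 had 106 pooled counts in Eed cKO and 33 in control (log2 fold change 1.99, edgeR adjusted p 0.368). Every Eed cKO library lay above every control library for Actc1. Among the untested genes, Tnnt1 had 21 pooled counts in Eed cKO and 2 in control. Myh3 had 22 in Eed cKO and 44 in control, and Myh7 had 2 and 8. The heart myosin gene Myh6 averaged 0.079 CPM in Eed cKO and 0.0499 CPM in control. Sums of endothelial and mural, melanocyte and immune markers overlapped between the groups, and 0 of their 14 tested members were called. Of the 4 tested immune markers, 0 had a positive log2 fold change, and the median was -1.07. Lyz2 averaged 4.20 CPM in Eed cKO and 13.7 CPM in control (edgeR adjusted p 0.0503). Every Eed cKO library lay below every control library for Lyz2. It was called lower without control 2, without a filter on low counts and with DESeq2. Ptprc and Fcer1g were called lower without Eed cKO 1. Merkel cell markers summed to 7.75 to 14.1 CPM in Eed cKO and 0.195 to 1.82 CPM in control. Of the 4 tested, Sox2 and Isl1 were higher, Isl1 being also on the partner list. Both had 0 counts in control, so the limit of the filter on silent genes holds for them. All 4 tested had a positive log2 fold change. Krt18 had 130 pooled counts in Eed cKO and 25 in control and did not pass (edgeR adjusted p 0.138), but passed with DESeq2. Of the untested markers, Atoh1 had 40 pooled counts in Eed cKO and 0 in control, and Krt20 had 24 and 2. Without a filter on low counts, Atoh1 was called higher. Eed cKO 1 held 185 of the 238 Sox2 counts, and without it the call remained (edgeR adjusted p 0.0332). The part of Merkel cells in the values of the T-box genes was not tested.

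The gene with the most similar pattern to each tested T-box gene was found by Pearson's r of log2 CPM over the 6 libraries, among about 10950 genes with at least 5 CPM in the higher group. It was Ccnd2 for Tbx1 (r = 0.996), Slc6a9 for Tbx3 (r = 0.998), Hoxa10 for Tbx5 (r = 0.999), Tollip for Tbx15 (r = 0.994) and Atp6v1a for Tbx18 (r = 0.996). These values describe 6 libraries in 2 separate groups, and 2 to 28 genes per T-box gene reached an r above 0.99. The r does not depend on the size of a change. Ccnd2 had 1758 to 2106 CPM in Eed cKO and 961 to 1278 CPM in control, and Slc6a9 had 37.95 to 44.3 and 20.8 to 29.1 CPM. Tollip had 100 to 104 CPM in Eed cKO and 82.5 to 91.0 CPM in control, and Atp6v1a had 174 to 181 and 146 to 153 CPM. Hoxa10 had 21.6, 8.79 and 13.51 CPM in Eed cKO libraries 1, 2 and 3, and like Tbx5 no count in control.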

How the data were processed

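Raw counts by gene symbol were deposited for 6 libraries (3 Eed cKO and 3 control), with no normalization by the authors. Per the labels, 10 ng of total RNA was amplified with the Ovation RNA-seq System V2 and read as 100-nucleotide single reads. Per the submitters' processing notes, mm10 was the build, and HTSeq 0.6.1, TopHat2 2.0.13, DESeq2 1.6.3 and Cufflinks 2.2.1 are listed without a role; no annotation or strand setting is stated. Each value was a whole number, with totals that differ between libraries.

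Genes were kept by filterByExpr, which left 14700 of 24453, and tested with edgeR 4.0.16 in R 4.3.3 (TMM scaling, quasi-likelihood F-test, genotype as the only term, Benjamini-Hochberg adjustment over all genes tested). Fold changes are Eed cKO over control. Reads of amplified RNA are not independent molecules, so the intervals and floors given cover only counting error. With 3 libraries against 3, the smallest two-sided exact permutation p is 0.1, so single values were given no permutation test. Gene models are from GENCODE M21 (GRCm38), matched by symbol for 23797 of 24453 genes and all 8 T-box genes.

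The members and gene lists were chosen with earlier results of these data known. Genes were named by rule: the 8 members, Eed, genes of the T-box, partner and target lists that passed (or up to 2 with the smallest p), neighbours that passed, and the nearest pattern for each member. Genes named beyond it (cell type markers, Xist, Mga, Tbx6, Tbx3os2, Nkx2-5, Hand2, Mef2c, Pitx1, Cdh1, Cdkn1a, Nppb, Fgf8, Fgf10, Eomes, Tbx22, Wars2, Med13l, Rbm19 and Sept5) were picked with their values already known. Some listed genes are not reported here. The settings varied were the scaling (RLE or upper quartile), the filter (none, or 1 CPM in 3 libraries), the tool (limma-voom from limma 3.58.1, or DESeq2 1.42.0), a block for the replicate number, and each library left out in turn. For Epcam, Postn, Sox2, Pitx1 and the marker lists, these settings were chosen after the data had been seen. The pipeline was tested on simulated data with known changes, in 3 draws. It recovered 7.33% of 1.5-fold, 36.7% of 2-fold, 71.3% of 4-fold and 83.3% of 8-fold changes, and 6.24% of calls were false. A gene that did not pass may therefore still differ, most often by 2-fold or less, but also by 4-fold or 8-fold. The changed genes were drawn at random from all tested genes, so these rates do not describe genes with few counts. Plots used matplotlib 3.10.9 under Python 3.11.15.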

Additional observations from a re-analysis of the deposited data

How the results depend on the processing

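The calls of Tbx3, Tbx5, Tbx15 and Tbx18 held in all 13 alternatives, with log2 fold changes of 2.89 to 3.78, 8.96 to 11.1, 4.88 to 6.80 and 4.68 to 6.03. Tbx1 gave a value in 12 alternatives, since it did not pass the filter of 1 CPM in 3 libraries, and its call was lost in 9 of them, at edgeR adjusted p 0.0508 with upper-quartile scaling and 0.0608 with the replicate block, and at 0.0714 with limma-voom. The number of T-box genes higher was 4 or 5 in every alternative, and 4 in each fit that left out 1 library, and the number lower was 0 in every alternative. Tbr1 was the only other T-box gene higher, and that count was 0 with limma-voom and 0 to 1 with a library left out. The higher neighbours numbered 2 without a filter, with DESeq2, with limma-voom and with the replicate block, and 1 to 2 with a library left out. Partner genes higher numbered 5 to 6 and target genes 2 to 4 over all alternatives. Over all genes, 499 were higher and 120 lower, with 764 and 270 in DESeq2, 257 lower without a filter and 269 lower with the replicate block. Leaving out 1 library gave 302 to 456 higher and 35 to 118 lower genes; the cause was not tested. Same-numbered libraries of the 2 groups deviated together with correlations of 0.230, 0.108 and -0.00138, so the numbers were not taken as pairs, and the block result stands only here. With that block, the immune markers Ptprc, Lyz2 and Fcer1g were called lower. Among genes checked after the data had been seen, Postn and Sox2 kept their calls in each alternative that gave a value, and Epcam had adjusted p of 0.00479 to 0.171. Pitx1 passed without a filter, with limma-voom (adjusted p 0.0165), with the replicate block (0.000339) and without control 1, with adjusted p of 2.16e-07 to 0.577 over all alternatives. Tbx1, Tbx2, Tbx4 and Tbx20 are limited by depth, with at most 88 pooled counts in a group.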
